A study of Mus musculus with 10 samples.

Results

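A set of 9 genes that tuft cells use to make lipid mediators and to exchange cytokine signals was followed in jejunal epithelial cells of MYO5B-deficient mice. They were chosen by name from the 35275 genes of the deposited expression table, and 9 of 9 names were found there, each on 1 row. Of these, 5 encode eicosanoid enzymes or their partner (*Alox5*, *Alox5ap*, *Ltc4s*, *Ptgs1* and *Hpgds*), *Il25* and *Il17rb* encode a cytokine and a receptor subunit for it, and *Rgs13* and *Avil* encode a signalling regulator and an actin-binding protein. All 10 mice were adult C57BL/6 males by their labels and carried the VillinCreERT2 transgene, a tamoxifen-inducible Cre recombinase under a promoter active in intestinal epithelium, together with MYO5Bflox/flox alleles. The 3 noninduced controls (2, 4 and 5) received corn oil and no tamoxifen, so tamoxifen and loss of MYO5B cannot be told apart. The 4 MYO5B-deficient mice (3, 5, 6 and 7) received 2 mg of tamoxifen and vehicle, and the 3 LPA-treated MYO5B-deficient mice (1, 4 and 5) received 2 mg of tamoxifen and lysophosphatidic acid (LPA) at 3 mg/kg. The ipL in the titles of the LPA-treated mice was read as intraperitoneal LPA. Cells were taken on day 4, and no control mouse received LPA. For LPA-treated mouse 1 the description names vehicle in its first line and LPA in its second, and the title was followed.

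Tuft cells are rare chemosensory cells of the epithelium that sense luminal parasites and metabolites. They release interleukin 25, which acts on group 2 innate lymphoid cells through a receptor containing the IL17RB subunit, and cysteinyl leukotrienes, which are made from arachidonic acid by 5-lipoxygenase, its activating protein and leukotriene C4 synthase in turn. Cyclooxygenase 1 and hematopoietic prostaglandin D synthase lead from the same fatty acid to prostaglandin D2. Leukocytes use many of these genes as well. Mast cells, macrophages and granulocytes carry the leukotriene enzymes, mast cells and some T cells carry *Hpgds*, innate lymphoid cells and type 2 T cells carry *Il17rb*, and germinal centre B cells and mast cells carry *Rgs13*. Type 2 T cells and mast cells are also known to make interleukin 25. By that knowledge, and with *Ptgs1* also counted as expressed by leukocytes, 8 of the 9 genes are shared with them, and *Avil* is the 1 that is not. In bulk RNA of this kind, fewer cells of a type and less RNA per cell cannot be told apart.

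Between 10949420 and 24470409 reads per library lay on genes. The libraries of control 2 and MYO5B-deficient mouse 3 detected 12242 and 12601 genes against 17309 to 18267 in the other 8, a pair called gene-poor from here on. This pair also had 17.4% and 18.0% of reads on mitochondrial genes, against 1.98% to 3.50% in the others. *Xist* was read at 8.41 FPKM in MYO5B-deficient mouse 3 and at 15.1 FPKM in LPA-treated mouse 1, and neither had reads on 4 Y chromosome genes, against their male labels. *Myo5b* itself lay between 16.5 and 32 FPKM in control libraries and between 10.3 and 13.6 FPKM in all knockout libraries. Genes of absorptive enterocytes dominated, with a summed level of 14470 to 43660 FPKM over 10 genes. The tuft cell markers *Trpm5* and *Pou2f3* were present at means of 4.42 and 0.716 FPKM in noninduced controls, while the taste signalling genes *Gnat3* and *Gng13* were at 0 in all control libraries.

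Promoter sequence from RefSeq (GRCm38.p6) was at hand for 7 of the 9 genes, all but *Alox5ap* and *Il25*. The 100 bases before the start of *Alox5*, *Ptgs1* and *Rgs13* are shown as examples of how these promoters differ in base composition and motifs. The 3 genes had log2 fold changes of -1.81, -1.73 and -1.39 between knockout and noninduced mice, none of which passed. Capitals mark the GC box GGGCGG, read on the strand of the gene or its complement.
Alox5 (chr6:116461179-116461278, minus strand): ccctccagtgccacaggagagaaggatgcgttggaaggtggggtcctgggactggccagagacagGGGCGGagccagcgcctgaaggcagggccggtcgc
Ptgs1 (chr2:36230326-36230425, plus strand): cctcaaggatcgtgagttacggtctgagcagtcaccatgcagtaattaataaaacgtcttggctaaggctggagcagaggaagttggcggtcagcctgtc
Rgs13 (chr1:144177373-144177472, minus strand): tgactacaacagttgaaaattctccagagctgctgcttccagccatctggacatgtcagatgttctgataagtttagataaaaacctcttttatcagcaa
The *Alox5* stretch is 69% G and C with a GC box 35 bases before the start, whereas those of *Ptgs1* and *Rgs13* are 51% and 39% G and C and hold none. In the 300-base windows, 2 of 7 members (*Alox5* and *Il17rb*) held a GC box on either strand, against 35.7% of 32851 promoters. POU2F3, the transcription factor that specifies tuft cells, belongs to a family that binds the octamer ATGCAAAT. On either strand 1 of the 7 members held it, against 1.74% of all promoters, and TATAAA was in 0 of 7, against 13.6%. The octamer lay 174 bases before the RefSeq start of *Hpgds* and is in capitals in this 30-base window.
Hpgds (chr6:65144886-65144915, minus strand): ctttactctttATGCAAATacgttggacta
The row for *Hpgds* in the expression table reaches 178 bases further upstream than that start. The octamer therefore lies inside the gene as counted, and the rest of the window lies partly inside it. A match of letters does not show binding.

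Between MYO5B-deficient and noninduced controls, *Alox5ap* was the only member to pass an adjusted p of 0.05, and it was lower in knockout mice. Of the 9 genes, 8 averaged 0.1 FPKM or more across the libraries and were tested, and 7 of these 8 had a negative log2 fold change, against 36.6% of the 15729 genes tested. The call of 1 of 8 compares with 2.01% of all genes tested in either direction and 0.884% that were lower. Every knockout library lay below every control library for *Alox5*, *Alox5ap* and *Ptgs1*, 3 of 8, where 6.2% of all genes were lower without overlap. The median log2 fold change (of FPKM + 0.1) of the 8 tested members was -1.40, against 0.29 over all genes tested, and -0.95 without control 2 and MYO5B-deficient mouse 3, when 6 of 8 were lower. With median-ratio size factors the median of all genes fell to 0.038, and 7 of the 8 members again had a negative value. An unadjusted p under 0.05 was reached by 4 of the 8, and by 17.6% of all genes.

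**Figure D1:**
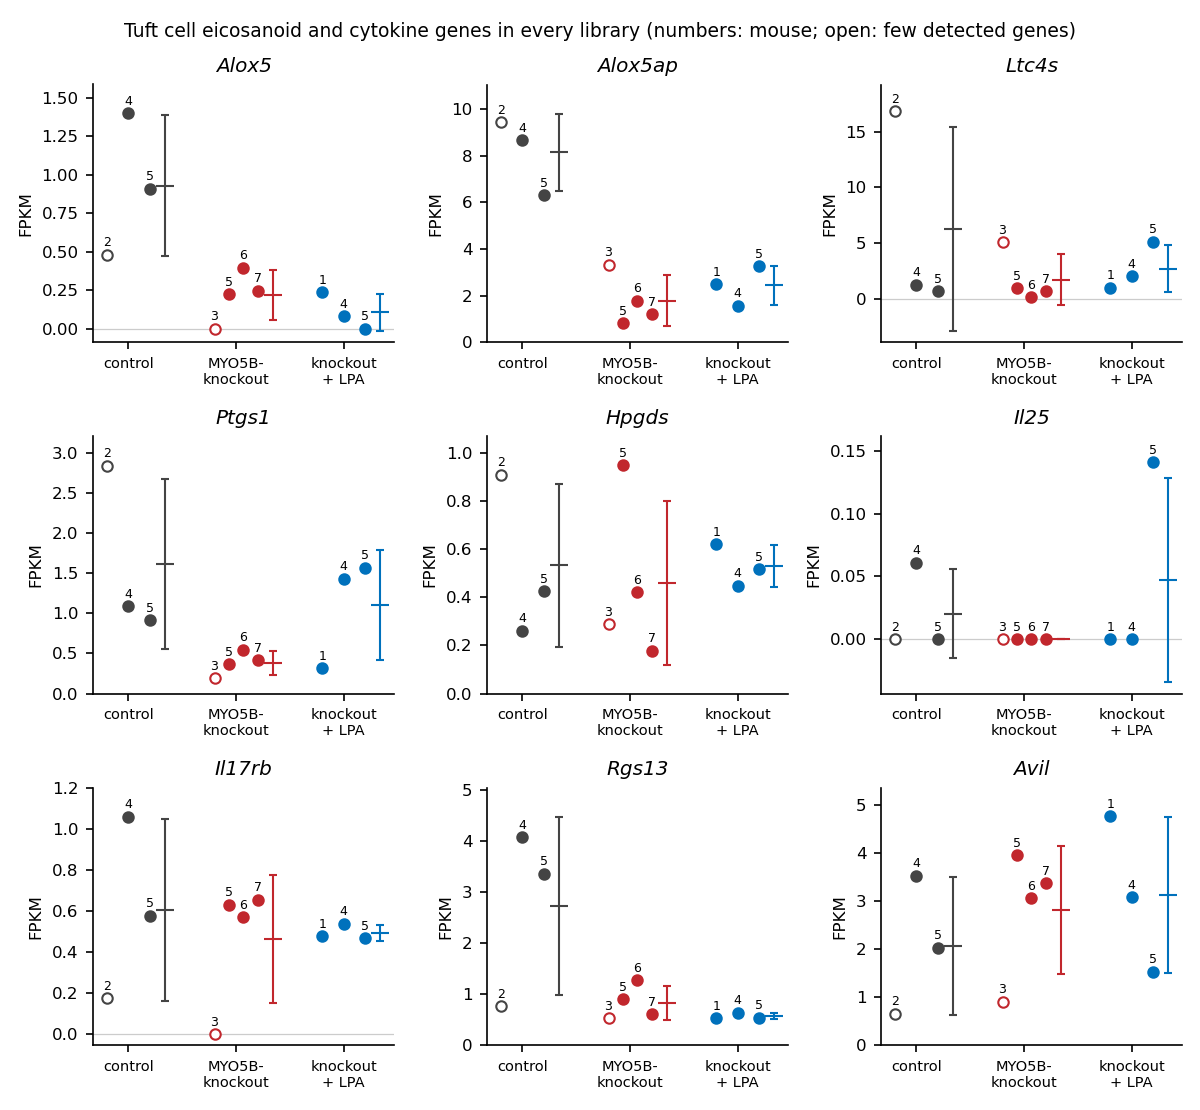
Level of each of the 9 genes in FPKM (linear axis from 0 or below) in every library, by group, with the mouse number above each point, open points for control 2 and MYO5B-deficient mouse 3, and the group mean with its SD at the right. *Alox5ap* lies between 6.30 and 9.46 FPKM in noninduced controls and between 0.817 and 3.32 FPKM in all 7 knockout mice, whereas the ranges of *Avil* overlap in all 3 groups.

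The leukotriene genes come first. *Alox5* (ENSMUSG00000025701, chromosome 6 from 116410077 to 116461178, GRCm38) encodes 5-lipoxygenase, which begins leukotriene synthesis. It was present at 0.481, 1.40 and 0.910 FPKM in noninduced controls 2, 4 and 5, from 19, 77 and 57 reads. MYO5B-deficient mice 5, 6 and 7 had 0.227, 0.397 and 0.248 FPKM, and mouse 3 had 0 reads, which allows up to 0.0766 FPKM at 3 reads. All 4 knockout libraries thus lay below the lowest control library. On the log2 scale the difference was -1.81 (standard error 0.69, limma adjusted p of 0.207), and -1.68 without the 2 gene-poor libraries (limma adjusted p of 0.111).

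*Alox5ap* (ENSMUSG00000060063, chromosome 5 from 149265058 to 149288045) encodes the membrane protein that presents arachidonic acid to 5-lipoxygenase, and it was the most abundant of the 9 in noninduced controls. Its levels were 9.46, 8.69 and 6.30 FPKM in noninduced controls 2, 4 and 5, from 89, 114 and 94 reads. MYO5B-deficient mice 3, 5, 6 and 7 had 3.32, 0.817, 1.78 and 1.20 FPKM, from 31, 12, 31 and 23 reads. The group means of 8.15 ± 1.65 FPKM (SD, n = 3) and 1.78 ± 1.10 FPKM (SD, n = 4) correspond to a log2 fold change of -2.29 (95% interval -3.39 to -1.19, standard error 0.50, limma adjusted p of 0.0455). The value lay close to the threshold. It held without MYO5B-deficient mouse 3 (limma adjusted p of 0.0209) and was lost without any other single library of these groups, with limma adjusted p from 0.0934 without MYO5B-deficient mouse 7 to 0.137 without control 4, while the fold change stayed between -2.64 and -2.0. Without the 2 gene-poor libraries it was -2.52 (limma adjusted p of 0.0262), and on the recovered reads edgeR gave an adjusted p of 0.088 and DESeq2 one of 0.00534. With quantile normalization it lay just above 0.05 (limma adjusted p of 0.0501).

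*Ltc4s* (ENSMUSG00000020377, chromosome 11 from 50236469 to 50238616) encodes the enzyme that joins glutathione to leukotriene A4. Its 3 control libraries were far apart, at 16.8, 1.27 and 0.718 FPKM, from 133, 14 and 9 reads. The 4 MYO5B-deficient libraries had 5.10, 0.972, 0.137 and 0.681 FPKM, from 40, 12, 2 and 11 reads, so the groups overlapped. In each group the highest library was the gene-poor one, control 2 and MYO5B-deficient mouse 3. The log2 fold change of -1.40 (standard error 1.20, limma adjusted p of 0.581) was -0.071 without control 2 and -2.19 without MYO5B-deficient mouse 3. *Ltc4s* shares 26.4% of its exonic bases with *Gm26542* on the opposite strand, which had 86 reads over the 10 libraries against 313 for *Ltc4s*, and nothing states that reads were counted by strand.

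Of the prostaglandin genes, *Ptgs1* (ENSMUSG00000047250, chromosome 2 from 36230426 to 36252272) encodes cyclooxygenase 1, the constitutive first enzyme of prostaglandin synthesis. It was present at 2.84, 1.09 and 0.916 FPKM in noninduced controls 2, 4 and 5 and at 0.191, 0.364, 0.546 and 0.418 FPKM in MYO5B-deficient mice 3, 5, 6 and 7. The groups did not overlap. Its log2 fold change of -1.73 (standard error 0.64, limma adjusted p of 0.197) was reduced to -1.03 without the 2 gene-poor libraries (limma adjusted p of 0.327), which hold the highest control and the lowest knockout value. On the recovered reads DESeq2 gave an adjusted p of 0.00733 and edgeR one of 0.0997.

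*Hpgds* (ENSMUSG00000029919, chromosome 6 from 65117293 to 65144908) encodes the enzyme that makes prostaglandin D2. Its levels were 0.912, 0.262 and 0.427 FPKM in noninduced controls and 0.289, 0.951, 0.422 and 0.179 FPKM in MYO5B-deficient mice, and the groups overlapped over most of their range. The log2 fold change of -0.23 (95% interval -1.52 to 1.07, limma adjusted p of 0.878) became 0.29 without the 2 gene-poor libraries.

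The cytokine itself was at the limit of detection. *Il25* (ENSMUSG00000040770, chromosome 14 from 54932695 to 54935837) had 3 reads in all 10 libraries together, 1 in control 4 and 2 in LPA-treated mouse 5. All 4 MYO5B-deficient libraries had 0 reads, which allows between 0.125 and 0.258 FPKM at 3 reads. It was below the minimum mean and was not tested, and a difference between the groups was not detectable at this depth.

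*Il17rb* (ENSMUSG00000015966, chromosome 14 from 29996141 to 30008896), the receptor subunit for interleukin 25, was present at 0.176, 1.06 and 0.577 FPKM in noninduced controls. MYO5B-deficient mice 5, 6 and 7 had 0.631, 0.570 and 0.654 FPKM, between the values of noninduced controls 4 and 5 or just below the latter, and mouse 3 had 0 reads. The lowest library of each group was again the gene-poor one. The log2 fold change was -0.45 (95% interval -2.20 to 1.30, limma adjusted p of 0.808) and 0.26 without MYO5B-deficient mouse 3.

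*Rgs13* (ENSMUSG00000051079, chromosome 1 from 144138654 to 144177372) encodes a protein that shortens signalling by G protein-coupled receptors. Control mice 4 and 5 had 4.08 and 3.36 FPKM and control 2 had 0.762 FPKM, inside the range of 0.532, 0.901, 1.27 and 0.603 FPKM in MYO5B-deficient mice 3, 5, 6 and 7. Read numbers behind these values were 13, 97 and 91 in noninduced controls and 9 to 40 in MYO5B-deficient mice. *Rgs13* differed by -1.39 on the log2 scale (standard error 0.60, limma adjusted p of 0.264). Without the 2 gene-poor libraries the groups no longer overlapped and it was -1.95 (limma adjusted p of 0.034), where 4.95% of all genes passed and 20.5% were lower without overlap.

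*Avil* (ENSMUSG00000025432, chromosome 10 from 127000709 to 127020994) encodes advillin, an actin-bundling protein of the tuft cell's apical bristles. Its direction differed from the other 7 genes tested, with a log2 fold change of 0.52 that did not pass (95% interval -0.99 to 2.03, limma adjusted p of 0.736). It was present at 0.657, 3.53 and 2.03 FPKM in noninduced controls and at 0.903, 3.96, 3.07 and 3.38 FPKM in MYO5B-deficient mice, and without control 2 the sign turned to -0.11. *Avil* shares 4.86% of its exonic bases with *Tsfm*, which lies on the opposite strand and had 11372 reads against 1531 for *Avil*, so part of its reads may belong to *Tsfm*.

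The comparison of LPA-treated with vehicle-treated MYO5B-deficient mice asks whether LPA changes these genes once MYO5B is lost. No member passed, and neither did any gene tested with limma (0%, with 2.92% at an unadjusted p under 0.05, 0 calls with edgeR and 6 with DESeq2). For all 8 members limma adjusted p was 1.0 and none reached an unadjusted p of 0.05. Of 8 members, 6 had a positive log2 fold change, against 60.7% of all genes, with a median of 0.39 against 0.11 over all genes, and without the 2 gene-poor libraries the median was -0.022 with 4 of 8 higher.

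*Ptgs1* had the lowest unadjusted p of the 8 (0.104 by limma). LPA-treated mice 1, 4 and 5 had 0.314, 1.43 and 1.57 FPKM, so mice 4 and 5 lay above all 4 vehicle-treated libraries and mouse 1 lay among them. Its log2 fold change was 1.14 (95% interval -0.28 to 2.57), and 1.79 without LPA-treated mouse 1. *Ltc4s*, at 1.03, 2.02 and 5.14 FPKM in the same mice, had a log2 fold change of 1.20 (95% interval -1.44 to 3.85). Without MYO5B-deficient mouse 3 its 3 LPA-treated libraries lay above the 3 vehicle-treated ones and the log2 fold change was 1.99 (limma adjusted p of 0.911), where 6.73% of genes were higher without overlap when control 2 was left out too.

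LPA-treated mice 1, 4 and 5 had *Alox5ap* at 2.49, 1.56 and 3.26 FPKM, within the range of the vehicle-treated mice and below all noninduced controls. The log2 fold change against vehicle was 0.55 (95% interval -0.55 to 1.65). *Alox5* was at the lower end, with 21, 5 and 0 reads and 0.240, 0.0808 and 0 FPKM, and a log2 fold change of -0.58 (95% interval -2.10 to 0.94). LPA-treated mice had nearly constant *Rgs13*, 0.529, 0.636 and 0.534 FPKM, and its log2 fold change was -0.41 (95% interval -1.74 to 0.92). The values of *Hpgds* (0.623, 0.449 and 0.518 FPKM), *Il17rb* (0.476, 0.539 and 0.466 FPKM) and *Avil* (4.77, 3.09 and 1.53 FPKM) lay within or near the range of the vehicle-treated mice, with log2 fold changes of 0.34, 0.44 and 0.18.

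LPA-treated MYO5B-deficient mice were also set beside noninduced controls, a comparison that shares its libraries with the other 2. None of the 8 members passed, against 2.32% of all genes. *Alox5*, *Alox5ap* and *Rgs13* were lower in all LPA-treated than in all control libraries, 3 of 8, where 6.38% of genes were lower without overlap. Their log2 fold changes were -2.39, -1.74 and -1.80, with limma adjusted p of 0.134, 0.132 and 0.193. Without control 2 and MYO5B-deficient mouse 3 these were -2.75, -1.62 and -2.52 with limma adjusted p of 0.0268, 0.0579 and 0.0106, where 8.56% of all genes passed. *Ptgs1* was at -0.58 (limma adjusted p of 0.705), *Ltc4s* at -0.20, *Il17rb* at -0.018, *Hpgds* at 0.12 (-0.22 after median-ratio scaling) and *Avil* at 0.70, where the median of all genes was 0.41 (0.10 after that scaling). Of 8 members, 6 were negative, against 30% of all genes, and 3 of 8 reached an unadjusted p under 0.05, against 16.4%.

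**Figure D2:**
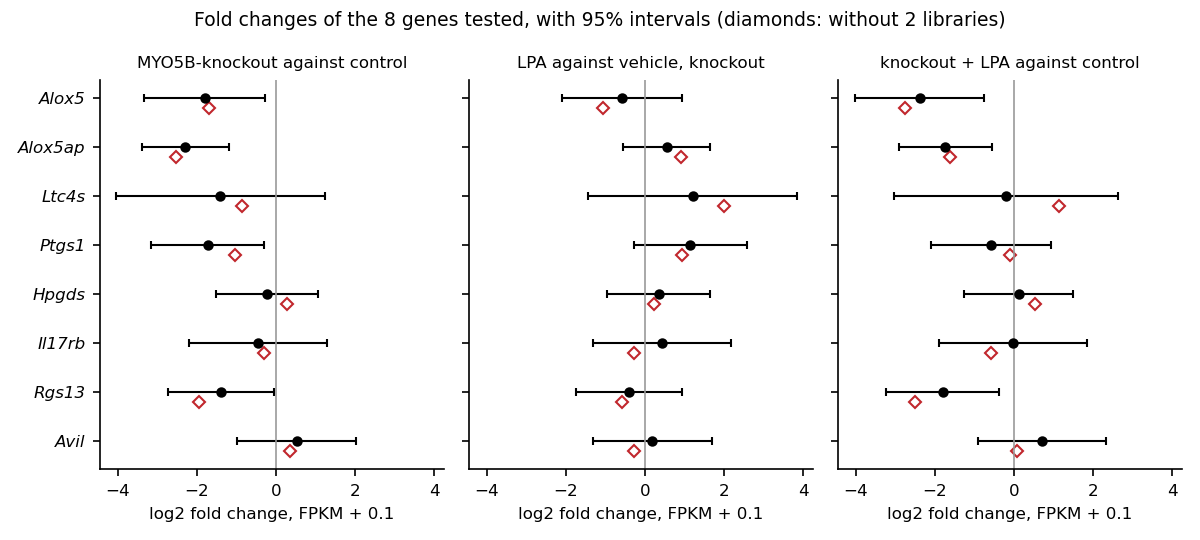
Log2 fold change of FPKM + 0.1 (horizontal axis) of the 8 genes tested in the 3 comparisons, with dots and 95% intervals from limma for all 10 libraries and red diamonds for the fit without control 2 and MYO5B-deficient mouse 3. The interval of *Alox5ap* between knockout and noninduced controls runs from -3.39 to -1.19, and in the comparison of LPA with vehicle all 8 intervals include 0.

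FPKM is scaled by gene length, so levels can be ordered between genes. In noninduced controls the order of mean levels was *Alox5ap* (8.15), *Ltc4s* (6.27), *Rgs13* (2.73), *Avil* (2.07), *Ptgs1* (1.62), *Alox5* (0.930), *Il17rb* (0.604), *Hpgds* (0.534) and *Il25* (0.0204 FPKM). In MYO5B-deficient mice *Avil* stood first at 2.83 ± 1.33 FPKM (SD, n = 4), followed by *Alox5ap* at 1.78 and *Ltc4s* at 1.72 FPKM, and in LPA-treated mice *Avil* was again first at 3.13 ± 1.62 FPKM (SD, n = 3). The ranges of neighbours in these orders overlapped, except between *Hpgds* and *Il25* in noninduced controls and between *Il17rb* and *Alox5* in LPA-treated mice. The place of *Ltc4s* rests on the gene-poor libraries in both groups, and without them its mean was 0.994 FPKM in noninduced controls and 0.597 FPKM in MYO5B-deficient mice, below *Rgs13* (0.924) and *Il17rb* (0.618) in the latter.

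Markers of leukocytes moved between the same groups. The 7 tested members shared with leukocytes all had negative fold changes in MYO5B-deficient mice, with a median of -1.40, and the 1 tested member that is not shared, *Avil*, was at 0.52. Without the 2 gene-poor libraries 6 of the 7 were negative, with a median of -1.03. All 14 genes of a T lymphocyte list had negative fold changes in MYO5B-deficient mice (median -2.42, and -2.51 without those 2 libraries). Their summed level was 464 to 662 FPKM in noninduced controls, 18.4 to 196 in MYO5B-deficient mice and 30.6 to 58.1 in LPA-treated mice. The gene with the highest mean of the 14 in each of these groups was *Gzma*, at 292, 44.4 and 22.95 FPKM. *Gzma*, a granule protease of intraepithelial lymphocytes, passed at -3.18 (limma adjusted p of 0.0438), as did *Cd7* at -2.74 (limma adjusted p of 0.0491), and 1 of the 14 passed without the gene-poor pair. Between LPA-treated and noninduced mice *Cd7*, *Gzma* and the T cell receptor chain gene *Cd3g* passed at -3.62, -3.67 and -3.18 (limma adjusted p of 0.0195, 0.0312 and 0.0472). None of the 14 was at 0 throughout any group. The part of T lymphocytes in the levels of the 7 shared genes was not tested.

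Mast cell genes, led by the granule protease genes *Mcpt1* and *Mcpt2* (67.5 and 20.2 FPKM at their highest), summed to 92.2 FPKM in LPA-treated mouse 1, 27.5 in MYO5B-deficient mouse 7 and at most 11.9 in the other 8 libraries. Within its group LPA-treated mouse 1 was highest for *Alox5*, *Hpgds* and *Avil*, lowest for *Ltc4s*, *Ptgs1* and *Rgs13*, and in between for *Alox5ap* and *Il17rb*. Between knockout and noninduced mice 7 of 8 tested mast cell genes had a positive fold change, with a median of 0.21 (0.32 without the 2 gene-poor libraries), and 0 passed in either case. The high-affinity IgE receptor gene *Ms4a2* was at 0 in all control libraries, as were *Cma1* and *Tpsab1*. The other genes of the list were read in noninduced controls, among them *Mcpt1*, *Mcpt2* and *Fcer1a* at means of 4.49, 1.28 and 0.0582 FPKM.

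Myeloid genes summed to 98.9, 33.7 and 48.3 FPKM in noninduced controls 2, 4 and 5, and control 2 was highest of its group for *Ltc4s*, *Ptgs1*, *Alox5ap* and *Hpgds* and lowest for *Alox5*, *Il17rb*, *Rgs13* and *Avil*. In MYO5B-deficient mice 3, 5, 6 and 7 they summed to 45.9, 12.0, 14.2 and 22.8 FPKM. Within this group mouse 3 was highest for *Ltc4s* and *Alox5ap* and lowest for *Alox5*, *Ptgs1*, *Il17rb*, *Rgs13* and *Avil*. The complement gene *C1qa* made up 67.9 FPKM of the sum of control 2 and 29.2 FPKM of that of mouse 3. In this gene-poor pair 8 and 9 of 16 myeloid genes were at 0, against 3 to 5 in the other libraries of both groups. The myeloid sums of the pair therefore rest largely on 1 gene. In LPA-treated mice 1, 4 and 5 the sums were 30.9, 73.0 and 100.3 FPKM, in the order of *Ltc4s* and *Ptgs1* in those mice and the reverse of *Alox5* and *Avil*. B cell, enteroendocrine and stromal sums had the same order. Reads on genes had the reverse order, at 24470409, 17302457 and 13324912 in these mice. Between knockout and noninduced mice 8 of 12 myeloid genes tested had a negative log2 fold change, with a median of -1.07 (-0.80 without the 2 gene-poor libraries). Lower levels without overlap were seen for 4 of 12 (6.2% of all genes), 0 passed in all libraries and 1 passed without that pair. All 12 myeloid genes tested had a positive log2 fold change between LPA and vehicle, with a median of 1.84, 6 of 12 were higher without overlap (3.56% of all genes), and 0 of 12 passed, with a median of 1.32 and 0 calls without the pair. The most abundant, the complement gene *C1qa* and the Fc receptor gene *Fcer1g*, were at -1.47 and -1.68 between knockout and noninduced mice and at 2.08 and 0.88 between LPA and vehicle. *Lyz2*, a lysozyme of macrophages and neutrophils, was at -1.88 and 2.94 in the same comparisons. The eosinophil peroxidase gene *Epx* was at 0 in all 10 libraries. *Prg2* and *Ccr3* of the same list were below the minimum mean but were read in some control and LPA-treated libraries. Their means were 0.0940 and 0.01825 FPKM in noninduced controls, 0 and 0 in MYO5B-deficient mice, and 0.177 and 0.0125 FPKM in LPA-treated mice. B cell and plasma cell genes summed to 109.5, 64.9 and 84.9 FPKM in noninduced controls 2, 4 and 5. MYO5B-deficient mice lay below them without overlap, with 55.0 FPKM in mouse 3 and 6.83 to 15.2 in mice 5, 6 and 7, and LPA-treated mice 1, 4 and 5 had 16.8, 74.6 and 88.9 FPKM. These sums rest largely on 1 gene, *Jchain*, at means of 81.4, 18.4 and 55.1 FPKM in control, MYO5B-deficient and LPA-treated mice. Its log2 fold change between knockout and noninduced mice was -2.77 (limma adjusted p of 0.129). Of 5 genes tested, 2 had a negative fold change between knockout and noninduced mice, with and without the gene-poor pair (medians 0.23 and 0.30). *Cd79a*, part of the B cell receptor, passed between knockout and noninduced controls at -3.16 (limma adjusted p of 0.0379), and the germinal centre gene *Mef2b* was at 0 throughout. The part of myeloid, mast and B cells in the values of *Ltc4s*, *Ptgs1*, *Alox5ap* and *Rgs13* was not tested.

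**Figure D3:**
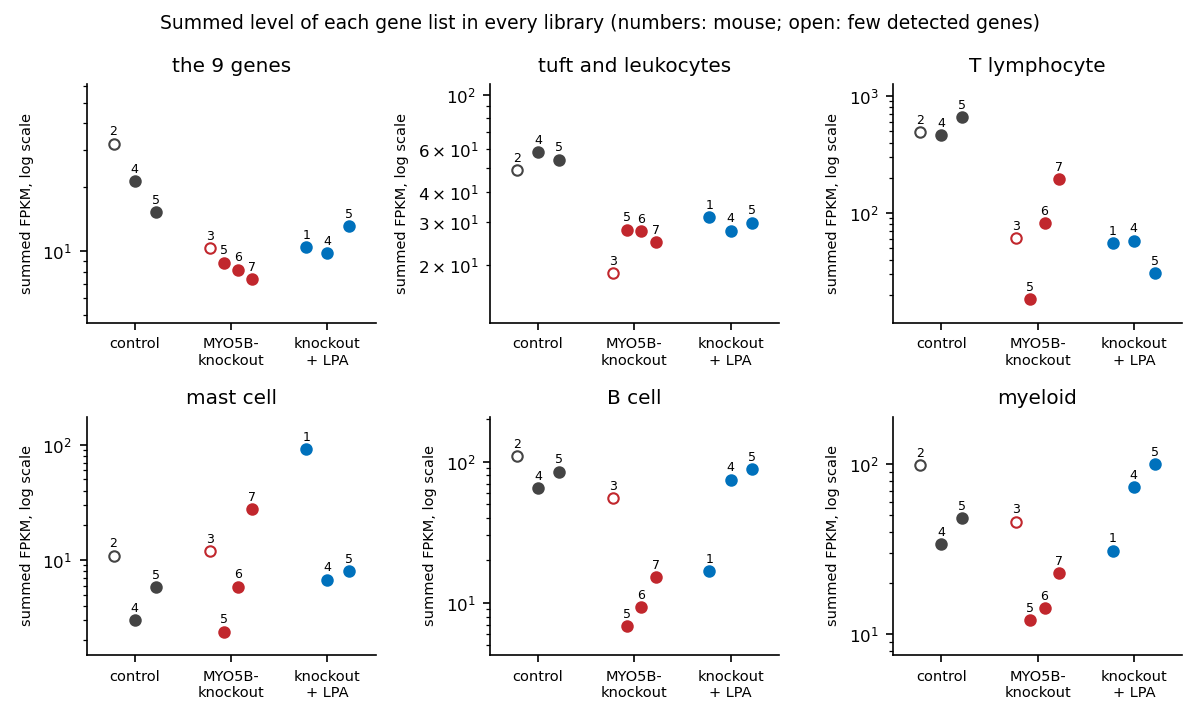
Summed FPKM (log axis, not starting at 0) in every library for the 9 genes, for other genes shared by tuft cells and leukocytes, and for 4 leukocyte lists, by group, with the mouse number above each point and open points for control 2 and MYO5B-deficient mouse 3. T lymphocyte sums lie at 464 FPKM or more in noninduced controls and at 196 or less in all knockout mice, while the myeloid sums of LPA-treated mice 4 and 5 reach 73.0 and 100.3 FPKM.

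Other tuft cell genes were read in the same way. Of 15 further genes shared by tuft cells and leukocytes, 15 of 15 had a negative log2 fold change in MYO5B-deficient mice, with a median of -1.19, 9 of 15 did not overlap (6.2% of all genes), and 0 passed. Without the 2 gene-poor libraries the median was -1.43 and 3 of 15 passed (4.95% of all genes). The most abundant were the phosphatase gene *Ptpn6*, at 15.1 ± 3.20 FPKM (SD, n = 3) in control and 9.95 ± 1.31 FPKM (SD, n = 4) in knockout mice, and the phospholipase gene *Plcg2*, at 5.28 ± 1.76 and 4.16 ± 2.59 FPKM, with log2 fold changes of -0.58 and -0.75. Of 18 tuft cell genes listed here as not shared with leukocytes, 13 were tested, 10 had a negative fold change with a median of -0.81, and 0 passed. Expression of these 18 genes in leukocytes was not examined, so leukocytes may carry some of them. Without the gene-poor pair the median was -1.10 and 3 of 13 passed. *Pou2f3*, the transcription factor gene of this lineage, *Trpm5*, its cation channel gene, and the kinase gene *Bmx* were lower in all MYO5B-deficient than in all control libraries, 3 of 13, at means of 0.139, 2.16 and 0.166 against 0.716, 4.42 and 1.05 FPKM. Their log2 fold changes of -1.83, -1.09 and -2.29 did not pass in all libraries (limma adjusted p of 0.137, 0.224 and 0.0655). For the tuft cell markers *Dclk1* and *Sucnr1* the groups overlapped, at -0.89 and -0.64 (limma adjusted p of 0.526 and 0.654). The marker *Chat* was below the minimum mean and was not tested. Between LPA-treated and vehicle-treated mice the medians of both lists were 0.26 and 0.097, with 0 calls, and -0.11 and -0.18 without the gene-poor pair, again with 0 calls. For LPA-treated mice against noninduced controls 0 of 15 and 1 of 13 passed, and 4 and 6 without that pair (8.56% of all genes). The second list holds *Krt18*, a keratin of all simple epithelia, at 191 ± 62.9 FPKM (SD, n = 3) in noninduced controls and 1039 ± 246 FPKM (SD, n = 3) in LPA-treated mice (log2 fold change 2.46, limma adjusted p of 0.0316). It also holds the calcium pump gene *Atp2a3*, at 31.2 and 42.8 FPKM in control and MYO5B-deficient mice (0.45, limma adjusted p of 0.352). Both had positive values, as did *Tas1r3* (0.97 between knockout and noninduced mice, limma adjusted p of 0.504), against the direction of most of that list.

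The rest of the eicosanoid pathway was measured through 45 further genes, 30 of which were tested. Of these, 17 had a negative and 13 a positive log2 fold change in MYO5B-deficient mice, with a median of -0.16, and 1 passed (-0.29 and 3 without the gene-poor pair). The 1 was *Ggt1*, a gamma-glutamyl transferase that converts leukotriene C4 to D4 and is also a brush border enzyme of glutathione breakdown. Its level was 679.5 ± 184 FPKM (SD, n = 3) in control and 216 ± 61.1 FPKM (SD, n = 4) in MYO5B-deficient mice, a log2 fold change of -1.67 (limma adjusted p of 0.0323). Its level in LPA-treated mice was 235 ± 52.1 FPKM (SD, n = 3), with -1.52 against control (limma adjusted p of 0.0498). *Abcc4*, a transporter that exports prostaglandins, passed between LPA-treated and noninduced controls at 1.27 ± 0.389 against 0.137 ± 0.0678 FPKM (SD, n = 3 each, log2 fold change 2.52, limma adjusted p of 0.034). The inducible cyclooxygenase gene *Ptgs2* was at 0.00855, 0.0287 and 0.1025 FPKM in control, MYO5B-deficient and LPA-treated mice, below the minimum mean. The leukotriene receptor genes *Cysltr1* and *Cysltr2* were also below it, at 0.0211 and 0.0452 FPKM in noninduced controls.

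The circuit around interleukin 25 was followed through 19 further genes, 15 of which were tested. *Areg*, which encodes the growth factor amphiregulin, made by epithelium and by innate lymphoid cells, rose from 16.6 ± 3.79 FPKM (SD, n = 3) in noninduced controls to 216 ± 89.0 FPKM (SD, n = 4) in MYO5B-deficient mice (log2 fold change 3.64, limma adjusted p of 0.00129). Its level in LPA-treated mice was 433 ± 94.5 FPKM (SD, n = 3), or 4.70 above control (limma adjusted p of 0.0004), and 1.07 above vehicle-treated mice, which did not pass. *Il2rg*, the receptor chain that lymphocytes use for several interleukins, was lower at 0.139 ± 0.177 against 1.38 ± 0.169 FPKM (SD, n = 4 and n = 3, log2 fold change -2.89, limma adjusted p of 0.0367). The median of the list was 0.11 with 2 calls, and 0.13 with 2 calls without the gene-poor pair, and the cytokine genes *Il5* and *Il9* were at 0 in all libraries.

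**Figure D4:**
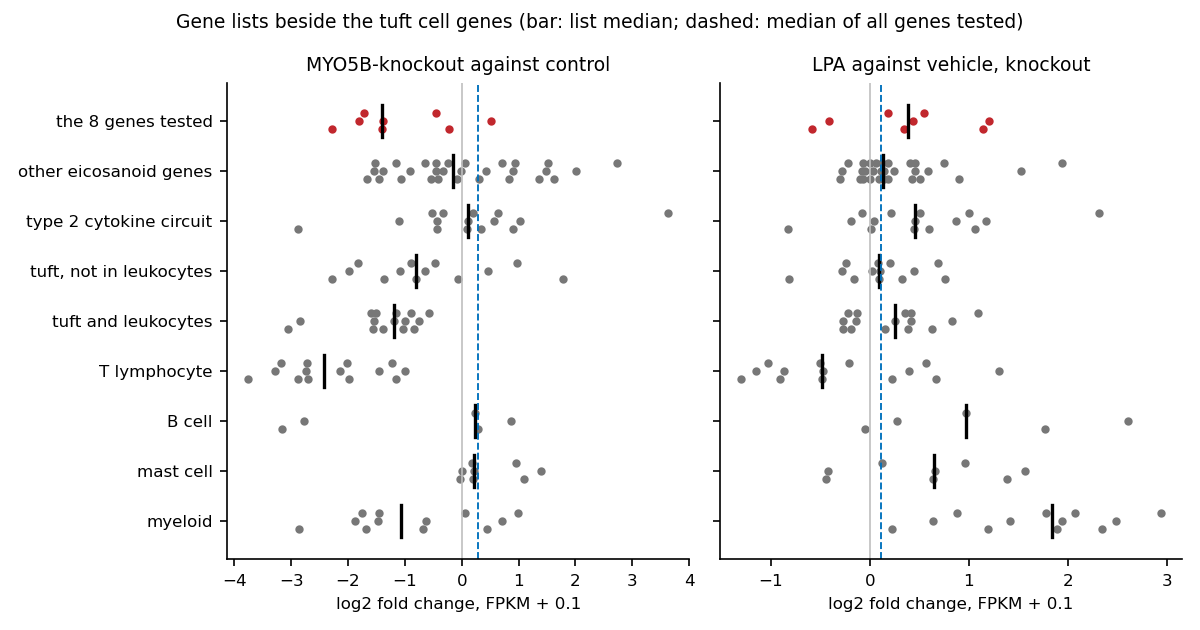
Log2 fold change of FPKM + 0.1 (horizontal axis) of every tested gene of 9 lists, between MYO5B-deficient and noninduced controls and between LPA-treated and vehicle-treated MYO5B-deficient mice, with a black bar at each list's median and a dashed line at the median of all genes tested (0.29 and 0.11). The members' median of -1.40 lies between those of the T lymphocyte list (-2.42) and the other eicosanoid genes (-0.16) in knockout against noninduced controls, and the myeloid median of 1.84 is the highest of these lists in the comparison of LPA with vehicle.

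Epithelial and stromal lists were read for the same mice. Between knockout and noninduced mice the enterocyte, goblet, Paneth, enteroendocrine and stromal lists had medians of -0.93, -0.15, -0.46, -0.21 and -0.47. Between LPA and vehicle they had medians of -0.078, 0.64, -1.34, 0.64 and 1.32, with 7 of 7 goblet, 9 of 9 enteroendocrine and 9 of 10 stromal genes positive, 7 of 7 Paneth genes negative, and 0 calls. Stromal sums in LPA-treated mice 1, 4 and 5 were 6.79, 13.9 and 15.6 FPKM, and 3.28 to 6.14 FPKM in vehicle-treated mice. Their order in LPA-treated mice was that of *Ptgs1*, *Ltc4s* and the myeloid, B cell and enteroendocrine sums, and the reverse of reads on genes. The part of stroma in the values of *Ptgs1* and *Ltc4s* was not tested. The enterocyte gene *Lct*, which encodes lactase, passed in both comparisons with noninduced controls at -8.33 and -9.23 (limma adjusted p of 0.00935 and 0.00661). The glucose transporter gene *Slc5a1* and the goblet cell gene *Agr2* passed between LPA-treated and noninduced mice at -1.79 and 1.92 (limma adjusted p of 0.0284 and 0.0471). The most abundant genes of the lists with 0 calls were *Sct* and *Gip* of enteroendocrine cells, *Defa24* and *Defa30* of Paneth cells, and *Vim* and *Acta2* of stroma, at 269.5, 402.4, 5012, 2454, 2.72 and 1.13 FPKM on average in noninduced controls.

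The members did not vary as a unit over the 10 libraries. With each gene standardised on the log2 scale, the root mean square difference of a member from the mean of the other members was between 0.854 for *Alox5* and 1.56 for *Ltc4s*, and the median difference of all genes from the members' mean was 1.39. *Ltc4s*, *Avil* (1.53) and *Hpgds* (1.38) were the least like the others. The genes whose pattern lay nearest to the mean of the members were *Stoml1* (0.215), *Zkscan14*, *Krt222*, *Vwce*, *Oaz2*, *Ces2b*, *Ppp1r14c* and *Rassf5* (0.346), none of them on a list used here. These measures describe the same 10 libraries and carry no test.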

How the data were processed

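RNA of jejunal epithelial cells, isolated mechanically in EDTA, was made into poly-A libraries, 1 per mouse (n = 3, 4 and 3). The authors deposited FPKM per gene, scaled to gene length and to the reads counted on genes of each library, and the submitters' processing notes name STAR 2.5, TopHat, HTSeq 0.6.1 and DESeq2 with builds GRCm38 and mm10. FPKM times gene length gave whole reads (within 0.01) for 100% of values, and 63 of 63 deposited read counts equalled them. Deposited fold changes, p-values and pathway enrichments were not used.

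Log2(FPKM + 0.1) of the 15729 genes averaging 0.1 FPKM or more was fitted with limma 3.58.1 (R 4.3.3) in a single 3-group model with trend (two-sided) and Benjamini-Hochberg adjustment over all genes tested at 0.05. edgeR 4.0.16 and DESeq2 1.42.0 on the recovered reads were alternatives. The fits were also run on simulated counts with the same dispersion for every gene and no gene-poor libraries. That run does not show how they perform for these members. Levels of 0 reads are given with the level of 3 reads, for counting error only. Nothing states whether libraries were processed in batches, so a batch that followed the groups could not be told apart from them. With 1 library per mouse, p-values measure a spread that mixes differences between mice with those between library preparations. The members and all gene lists were chosen with earlier results of these data known. Members were named throughout. From other lists, genes that passed (at most 4) were named, or else the 2 most abundant, and 8 genes were named by likeness. Markers of specific interest beyond these (*Trpm5*, *Pou2f3*, *Bmx*, *Dclk1*, *Sucnr1*, *Chat*, *Tas1r3*, *Atp2a3*, *Gnat3*, *Gng13*, *Lyz2*, *Jchain*, *Prg2*, *Ccr3*, *Fcer1a*, *Ptgs2*, *Cysltr1*, *Cysltr2* and genes at 0) were chosen after their values were seen.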

Additional observations from a re-analysis of the deposited data

Results flagged for a closer look

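A pair of values of the members stood apart from the other 3 libraries of the MYO5B-deficient group by Dixon's gap ratio, which chance exceeds in about 1 in 20 groups. *Ltc4s* in MYO5B-deficient mouse 3 was at 5.10 FPKM, against 0.137 to 0.972 FPKM in mice 5, 6 and 7 (gap ratio 0.832). *Il17rb* in the same library was at 0 FPKM, against 0.570 to 0.654 FPKM in the other 3 (gap ratio 0.871). This library also detected few genes, had 18.0% of its reads on mitochondrial genes and held *Xist*, and the part of these properties in the 2 values was not tested. Groups of 3 were not examined in this way.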

How the results depend on the processing

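Between MYO5B-deficient and noninduced controls 316 genes passed in all libraries. The count was 188 without a filter on low values, 598 after median-ratio scaling (222 higher and 376 lower, against 177 and 139), 804 after quantile normalization, 50 with only the 2 groups in the model, 778 without the 2 gene-poor libraries, 1854 with DESeq2, and between 44 and 403 with each mouse left out. The 1 member called was lost (0 members) with a pseudocount of 0.01, without the filter, with only the 2 groups and with edgeR, 2 members passed after quantile normalization, which did not include *Alox5ap* (limma adjusted p of 0.0501), 2 passed without the 2 libraries, 3 passed with DESeq2, and 0 to 1 with each mouse left out. Between 6 and 7 members were lower with each mouse left out. For LPA-treated against noninduced controls 365 genes passed (243 higher and 122 lower, and 221 and 269 after median-ratio scaling), 626 after quantile normalization, 190 with only the 2 groups, 1346 without the 2 libraries, 1503 with DESeq2, and 73 to 329 with each mouse left out. The members called were 2, 2 and 3 under quantile normalization, without the 2 libraries and with DESeq2, and 0 to 1 with each mouse left out. For LPA against vehicle 6 genes passed with DESeq2 and 0 in every limma fit and with edgeR, with 4 to 6 members higher with each mouse left out.

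Signs turned for *Hpgds*, *Il17rb*, *Ltc4s*, *Avil* and *Ptgs1*, each at a fold change smaller than its standard error in that comparison with all libraries. For LPA against control these were *Hpgds* at -0.22 after median-ratio scaling, -0.42 after quantile normalization, -0.51 with edgeR and -0.56 with DESeq2, *Il17rb* at 0.041 with a pseudocount of 0.01, and *Ltc4s* at 1.13 without the 2 gene-poor libraries. For LPA against vehicle, quantile normalization gave *Hpgds* -0.031 and *Il17rb* -0.054, and leaving out the 2 libraries gave *Avil* -0.27 and *Il17rb* -0.28. For knockout against control *Hpgds* was 0.29 without them. Leaving out the 2 libraries that held *Xist*, a setting chosen after seeing the data, gave *Il17rb* 0.26, 0.0025 and -0.26 for knockout against control, LPA against control and LPA against vehicle. It gave *Avil* -0.64 for LPA against vehicle and *Ltc4s* 0.32 and *Ptgs1* 0.068 for LPA against control, and kept *Alox5ap* called between knockout and noninduced controls (limma adjusted p of 0.0362). With each mouse left out, *Avil* ranged from -0.11 to 1.03 and from -0.27 to 0.61, *Hpgds* from -0.59 to 0.18 and from -0.22 to 0.52, *Il17rb* from -1.01 to 0.26, from -0.58 to 0.46 and from -0.28 to 0.70, *Ltc4s* from -1.05 to 1.13 and *Ptgs1* from -0.94 to 0.068. The cause of these changes was not tested.

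No paired analysis was possible because MYO5B-deficient mice share only the number 5 with either other group. Control and LPA-treated mice share the numbers 4 and 5, and the labels do not say that a number pairs mice (correlations of deviations 0.104 and -0.356). With the number as a replicate block 0 genes and 0 members passed, and *Avil* was -0.29, *Ltc4s* 1.65 and *Ptgs1* 0.54.

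With 3 against 4 mice an exact permutation test of a single gene cannot go below p = 0.0571. Counts of 0 to 133 reads per library for every member but *Avil* limit what can be seen, and *Il25* could not be compared.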
